A study of Mus musculus with 57 samples.

Results

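Chemokines are small secreted proteins that attract leukocytes, and they act through G protein-coupled receptors on the cells they recruit. CC and CXC ligands are named for the spacing of their first cysteines, and their receptors are named CCR and CXCR accordingly. In adipose tissue, ligands such as Ccl2 are known for recruiting monocytes that become adipose tissue macrophages. The chemokines and chemokine receptors described here were the genes whose symbol is Ccl, Cxcl or Ccr with a number, Cxcr with a digit, Cx3cl1 or Cx3cr1. This rule used no measured value. It matched 56 gene symbols, of which Ccl27 carried no counts, and 54 genes with counts (38 ligands and 16 receptors) of 52853 in all are described.

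Mfn2 encodes mitofusin 2, a protein of the outer mitochondrial membrane that fuses mitochondria. The mice were male C57BL/6J animals homozygous for the R707W change in Mfn2 (KI) or their wild-type controls (WT). The change was made by CRISPR-Cas9, is carried in every cell of the body, and came from a single founder. Mice were fed a high fat diet (HFD, 45% of calories from fat) or chow for 6 months, starting at 5 weeks of age, and bulk RNA was sequenced from inguinal white adipose tissue (WAT) or brown adipose tissue (BAT). There were 8 KI and 8 WT mice for inguinal WAT on HFD, 6 KI and 7 WT for inguinal WAT on chow, and 6 KI and 6 WT for BAT on HFD. Mfn2 itself had 129 to 417 CPM in all mice, and this level does not check a single amino acid change.

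Each mouse had 17572752 to 25680411 counts in inguinal WAT on HFD, 8668279 to 11720458 on chow and 8042591 to 10522554 in BAT. Levels are CPM, counts scaled to a common library total, after applying TMM factors within each table, which correct for differences in composition between libraries. The 7 adipocyte markers checked summed to between 16023 and 41703 CPM in every mouse. The 6 brown adipocyte markers summed to at least 9734 CPM in BAT and at most 920 CPM in inguinal WAT, so the tissue labels held. Some inguinal samples were also high in markers of other tissues. In 3 mice on HFD and 4 on chow the summed level of 20 lymphocyte and lymph node markers was between 5.15 and 45.0 times the median of the table. Chow KI mouse 4 had 63143 CPM of 5 skeletal muscle markers, and chow WT mouse 4 had both the highest macrophage sum (4034 CPM) and the highest epithelial sum (141 CPM). In bulk tissue, fewer cells of a type and less RNA per cell cannot be told apart.

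Many of these genes lie in clusters on the mouse genome (GRCm38). Ccl2, Ccl7, Ccl11, Ccl12, Ccl8 and Ccl1 span chr11:82035571-82305690, and Ccl5, Ccl9, Ccl6, Ccl3 and Ccl4 span chr11:83525778-83664683. Cxcl9, Cxcl10 and Cxcl11, the ligands of Cxcr3 that interferon-gamma induces, span chr5:92321347-92365485. Ccr9, Cxcr6, Ccr1, Ccr3 and Ccr2 span chr9:123678439-124113557. The promoters of 4 ligands described in the genotype comparisons are shown. They run from 250 bases before to 50 bases after the start site in RefSeq (GRCm38.p6), and are read 5′ to 3′ on the strand of the gene. Capitals mark a match to the NF-kB motif or to an interferon response element (GAAA, any pair of bases, then GAAA again). The first is Cxcl10 at chr5:92348840-92349139 (minus strand), with 2 NF-kB matches and 1 interferon element:
Cxcl10: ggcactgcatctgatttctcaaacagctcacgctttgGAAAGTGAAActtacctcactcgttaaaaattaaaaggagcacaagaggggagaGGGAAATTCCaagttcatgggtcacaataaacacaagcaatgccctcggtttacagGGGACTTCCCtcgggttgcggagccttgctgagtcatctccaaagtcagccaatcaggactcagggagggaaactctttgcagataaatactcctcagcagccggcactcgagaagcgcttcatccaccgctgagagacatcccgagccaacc
The next is its neighbour Cxcl9 at chr5:92328030-92328329 (minus strand), which holds neither motif in this window:
Cxcl9: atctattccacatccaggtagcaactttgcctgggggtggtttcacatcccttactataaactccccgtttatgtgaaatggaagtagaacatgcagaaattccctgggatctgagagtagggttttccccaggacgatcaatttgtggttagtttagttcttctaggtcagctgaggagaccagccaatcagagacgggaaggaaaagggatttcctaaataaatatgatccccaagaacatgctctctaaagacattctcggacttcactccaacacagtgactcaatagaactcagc
The last 2 are ligands whose levels in BAT are described further on, Cx3cl1 at chr8:94771930-94772229 (plus strand) and Cxcl14 at chr13:56296502-56296801 (minus strand):
Cx3cl1: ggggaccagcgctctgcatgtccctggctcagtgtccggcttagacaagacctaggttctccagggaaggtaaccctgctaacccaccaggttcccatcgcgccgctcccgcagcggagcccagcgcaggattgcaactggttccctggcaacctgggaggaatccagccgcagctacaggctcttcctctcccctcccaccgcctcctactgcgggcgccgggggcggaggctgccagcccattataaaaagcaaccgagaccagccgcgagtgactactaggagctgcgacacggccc
Cxcl14: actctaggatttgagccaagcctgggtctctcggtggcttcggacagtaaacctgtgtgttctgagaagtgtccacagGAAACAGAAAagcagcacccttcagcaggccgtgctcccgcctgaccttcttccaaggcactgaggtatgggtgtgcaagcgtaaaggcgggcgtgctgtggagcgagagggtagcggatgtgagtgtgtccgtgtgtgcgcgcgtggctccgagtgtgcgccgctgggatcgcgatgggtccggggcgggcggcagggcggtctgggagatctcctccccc

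Of the 54 genes, 39 had at least one such promoter, 46 promoters in all. The NF-kB motif, searched on both strands, was in 9 of the 46, against 4.51% of 32851 promoters of all genes. The 9 belong to Ccl20, Ccl27a, Cxcl3, Cxcl1, Cxcl2, Cxcl10, Ccr3, Ccl9 and Ccr6. The interferon response element, also searched on both strands, was in the promoters of Ccl19, Cxcl10 and Cxcl14, against 3.44% of all promoters. The cAMP response element, TGACGTCA, was in none of the 46, against 1.79% of all. A match describes letters in a window and is not a binding site.

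Most chemokine transcripts were scarce. A median count above 10 was reached by 34 of the 54 genes in inguinal WAT on HFD, by 28 on chow and by 21 in BAT. All mice had 3 counts or fewer for 8, 11 and 18 of the genes respectively, and 3 counts is the floor used here for a gene that was not detected. Counts were 0 in every BAT mouse for 9 genes, among them Ccr6, Ccr8 and Ccl20. Ccl21a, a ligand of Ccr7 in lymphoid tissue, was at 0 in every mouse of all 3 tables, but it has near-identical copies, between which the counting may have split or dropped reads.

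Per kilobase of transcript, inguinal WAT was led by Ccl6, Ccl11 and Cxcl14, and BAT by Cxcl12 and Cxcl14. In WT mice on HFD the highest levels in inguinal WAT were 60.1 ± 16.3 CPM per kb for Ccl6, a macrophage-expressed CC ligand, and 47.6 ± 14.0 for Ccl11, the eosinophil attractant eotaxin-1 (mean ± SD, n = 8). Cxcl14, a ligand with no settled receptor, had 39.9 ± 12.3 CPM per kb in these mice and 86.8 ± 39.0 in WT mice on chow, where it was the highest. Cxcl12, which retains Cxcr4-bearing cells in marrow and other tissues, was highest in BAT of WT mice at 25.1 ± 3.68 CPM per kb, with Cxcl14 at 23.5 ± 5.25, a smaller difference than the SD of either. The order of the inguinal leaders was likewise not clear of the spread between mice. In KI mice on HFD, Ccl11 (65.6 ± 12.8), Ccl6 (44.3 ± 21.2) and Cxcl14 (44.2 ± 6.16 CPM per kb) led. The remaining genes among the top 5 of a group were Ccl9, Ccl7, Ccl8, Ccl5 and Cxcl9, the last a ligand of Cxcr3. These ranks use group means, and those of Ccl5 and Ccl8 leaned on few mice. In inguinal WAT on HFD, Ccl5 had 154 CPM in KI mouse 2. It had 92.7 and 82.9 CPM in WT mice 2 and 6, and 3.75 to 19.3 in the others. On chow, KI mouse 3 had 127 CPM of Ccl5 against 2.71 to 12.0 in the other KI mice. Ccl8 on chow had 75.0 CPM in KI mouse 3, 68.7 in WT mouse 4 and 1.73 to 32.6 in the others.

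**Figure D1:**
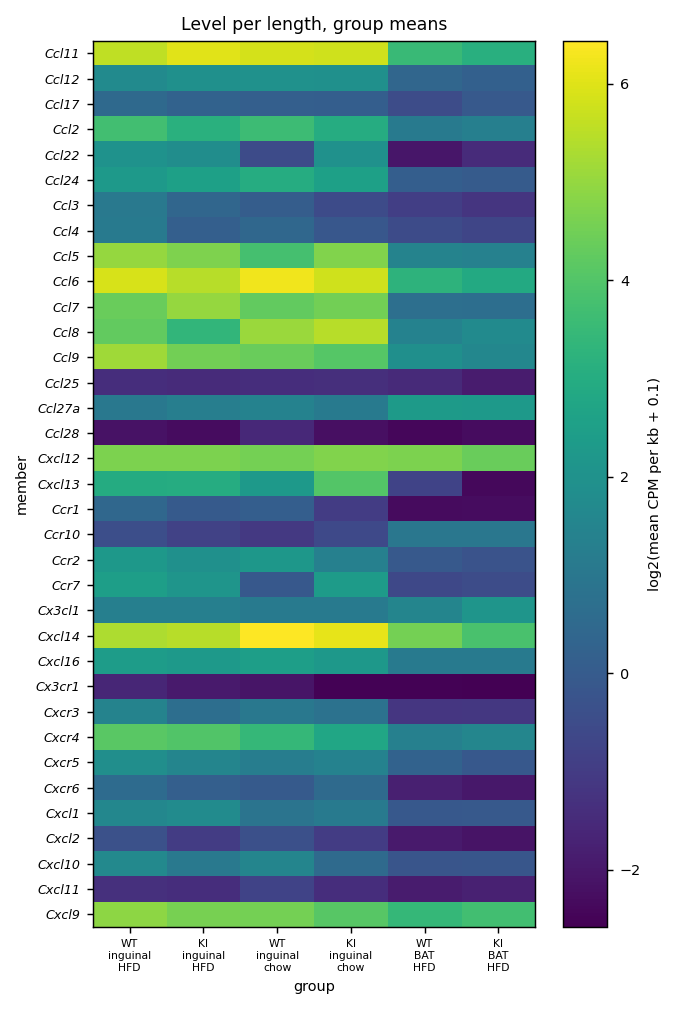
Mean level per transcript length of the chemokines and receptors tested in at least one table, as log2(CPM per kb + 0.1) in colour, with genes on the vertical axis and the 6 groups of mice on the horizontal axis. Most ligands and receptors are darker (lower) in the 2 BAT columns than in the 4 inguinal columns, while Ccl27a and Ccr10 are lighter there.

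Several members were far higher in the mice with lymphocyte markers than in the other mice of the same genotype and diet. In inguinal WAT on HFD these mice were KI mouse 2, WT mouse 2 and WT mouse 6. In all 3 of them, 13 of the 54 genes were higher than in any of the other 13 mice. The share of all genes that did so was not computed for either diet, so these counts cannot be called particular to chemokines. Ccr7, which guides lymphocytes and dendritic cells into lymph nodes, had 24.7 to 58.7 CPM in the 3 mice and 0.767 to 2.78 CPM in the 13. Ccl22, a ligand of Ccr4 from dendritic cells, had 19.5 to 53.5 against 0.596 to 3.68 CPM. Cxcl13, the B cell attractant of follicles, had 13.5 to 62.8 against 0.106 to 5.97 CPM. The other 10 were Ccl5, Ccl17, Ccl19, Ccr6, Ccr8, Ccr9, Cxcl16, Cxcr3, Cxcr5 (the receptor of Cxcl13) and Cxcr6 (the receptor of Cxcl16). Cxcl12 was not among them, with 183 to 232 CPM in the 3 mice and 167 to 234 CPM in the others. In the gene models, 552 of the 3021 exonic bases of Cxcl16 overlap Zmynd15 on the opposite strand. Zmynd15 had a median of 8.50 and a highest value of 57.0 CPM in KI mice, and 9.41 and 30.2 CPM in WT mice. Of the 10260 exonic bases of Ccr9, 2201 overlap other genes. The part of overlapping reads in the values of Cxcl16 and Ccr9 was not tested in these mice. On chow the 4 mice were KI mouse 3, KI mouse 1, WT mouse 4 and WT mouse 1, and only Ccl12, Ccl19 and Cxcl13 were higher in all 4 than in the other 9. Chow KI mouse 3 alone had 54.1 CPM of Ccr7 and 127 CPM of Ccl5. No BAT sample exceeded 3 times its table's median for these markers.

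**Figure D2:**
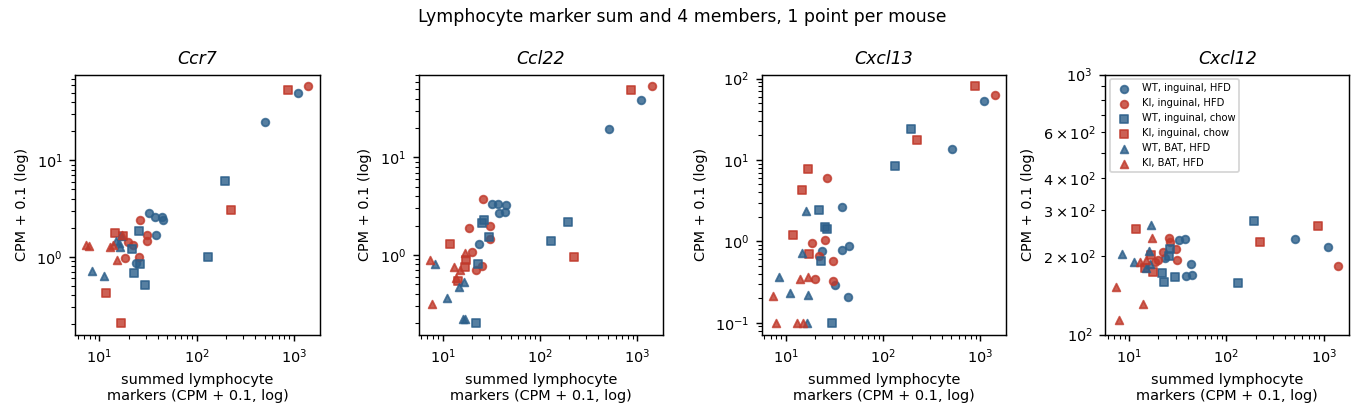
CPM of Ccr7, Ccl22, Cxcl13 and Cxcl12 (vertical axes, log) against the summed CPM of 20 lymphocyte and lymph node markers (horizontal axes, log), 1 point per mouse and tissue, blue for WT and red for KI. The mice with the highest marker sums carry the highest Ccr7, Ccl22 and Cxcl13, and Cxcl12 keeps to 114 to 273 CPM throughout.

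The first question was whether chemokine genes differed between KI and WT mice in inguinal WAT on HFD. None of the 34 genes tested was called at an adjusted p below 0.01 by edgeR's quasi-likelihood test, against 11.5% of all 16471 genes tested. DESeq2 called 4, Ccl4, Ccl5, Cxcl10 and Cxcr6, all lower in KI mice, where it called 16.5% of all genes. Of these 4, Ccl5 and Cxcr6 are among the genes higher in all 3 lymphocyte-rich mice than in the others. EdgeR gave them adjusted p of 0.866 and 0.740. At an unadjusted p below 0.05 there were 10 (2 higher and 8 lower in KI mice), where 32.9% of all genes had such a p. At an adjusted p below 0.05 there were 2, Ccl4 and Cxcl10, against 20.9% of all genes. The log2 fold change was below 0 for 24 of the 34, with a median of -0.30, where all genes tested had a median of 0.01 and 49.2% below 0. Leaving out 1 of the lymphocyte-rich mice moved the members' median to -0.03 (WT mouse 2) or to -0.46 (KI mouse 2), and without all 3 it was -0.32. All 9 receptors tested had a value below 0 (median -0.41), as did 15 of the 25 ligands (median -0.16). Without WT mouse 2, Ccr7, Cxcr6, Cxcr4 and Cxcr5 had values above 0, at 0.68, 0.19, 0.05 and 0.02, and without all 3 mice the 9 receptors were below 0 (median -0.45). No gene was free of overlap between the genotypes, against 4.75% of all genes.

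Some markers of leukocytes were lower in these KI mice. The 15 macrophage markers summed to 1191, 1690 and 2126 CPM in WT mice (lowest, median, highest) and to 875, 1225 and 2579 CPM in KI mice, so that the highest sum was that of a KI mouse. Of the 15, 14 had a log2 fold change below 0, and Cd163 had 0.40 ± 0.20. Of the 14, 2 fell at an edgeR adjusted p below 0.01, Itgax and Mpeg1, where 11.5% of all genes were called. All 4 mast cell markers tested fell. Of 2 neutrophil markers tested, S100a8 fell and S100a9 had 0.17 ± 0.46. None of the 16 lymphocyte and lymph node markers and 5 dendritic cell markers tested was called. At an unadjusted p below 0.05 there were 0 and 1 of them, against 32.9% of all genes. The part of these cell types in the chemokine values was not tested.

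Among the interferon-induced CXC ligands, Cxcl10 had the lowest adjusted p of all members. It had 4.13, 6.57 and 11.1 CPM in WT mice (lowest, median, highest) and 3.31, 4.59 and 5.60 CPM in KI mice. Every KI mouse lay below the WT median, although the ranges overlapped. The log2 fold change was -0.63 ± 0.17 (SE), with an adjusted p of 0.0114 (edgeR) and an exact permutation p of 0.00264 (2-sided, n = 8 per group). Over all alternatives the adjusted p ran from 0.00202 to 0.0314. Cxcl9 had 54.6, 88.1 and 117 CPM in WT and 58.0, 73.3 and 92.3 CPM in KI mice, with a log2 fold change of -0.32 ± 0.13 (adjusted p = 0.0779). Cxcl11, which is annotated as a polymorphic pseudogene, had a log2 fold change of -0.08 ± 0.25. In the gene models, 1582 of its 3794 exonic bases overlap Gm2673 on the opposite strand. Their receptor Cxcr3, found on activated T cells, had 2.14, 4.06 and 8.19 CPM in WT and 1.31, 1.85 and 7.35 CPM in KI mice. The highest KI value is that of mouse 2, which carries lymphocyte markers. Its log2 fold change of -0.83 ± 0.38 (adjusted p = 0.14) became -1.27 without that mouse, at an adjusted p of 0.00458, and -0.84 without all 3 lymphocyte-rich mice, at 0.0204.

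The counts of Cxcl10 have a further limit. In the gene models, 133 of its 2252 exonic bases overlap Art3, which lies on the opposite strand and had 238.6 to 375.6 CPM in WT and 186 to 279.9 CPM in KI mice, far above Cxcl10. Whether reads were counted by strand is not given in the sources used here, and without strand the reads of the 2 genes cannot be told apart where they overlap. Art3 had a log2 fold change of -0.41 ± 0.11 (adjusted p = 0.0111). Cxcl10 amounted to 1.17%, 2.07% and 4.27% of the Art3 level in WT mice (lowest, median, highest) and to 1.23%, 1.90% and 2.62% in KI mice (exact permutation p = 0.438), a comparison chosen after these values had been seen.

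Among the inflammatory CC ligands, 8 of the 12 tested had a log2 fold change below 0 and 4 above (median -0.37). Ccl4, a macrophage and T cell product, had 0.821, 1.39 and 1.83 CPM in WT and 0.221, 0.609 and 1.51 CPM in KI mice. Of the 8 KI mice, 7 lay below every WT mouse, and mouse 5 reached into the WT range. These levels rest on 15 to 42 counts per WT mouse and 5 to 39 per KI mouse. The log2 fold change was -0.98 ± 0.29, with an adjusted p of 0.0213 (edgeR) and an exact permutation p of 0.00295. KI mouse 5 had the highest KI value, and without it Ccl4 passed the threshold at -1.27. Ccl3, a macrophage ligand beside it on the chromosome, had a log2 fold change of -0.71 ± 0.28 (adjusted p = 0.0801).

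Ccl5, a ligand that T cells make in quantity, followed the lymphocyte-rich mice. It had 6.35, 14.0 and 92.7 CPM in WT and 3.75, 5.45 and 154 CPM in KI mice, where the highest value of each group is that of mouse 2. The log2 fold change was -0.31 ± 0.94 with all mice and -2.28 without KI mouse 2 (adjusted p = 0.0222). Ccr7, Ccl22 and Cxcr6 moved likewise without that mouse, from -0.34, -0.20 and -0.43 to -2.98, -2.56 and -1.66, at adjusted p of 0.0280, 0.0291 and 0.0284. WT mice 2 and 6 remain in that comparison. Without WT mouse 2 in place of KI mouse 2, the values were above 0, at 0.18 for Ccl5, 0.68 for Ccr7, 0.66 for Ccl22 and 0.19 for Cxcr6. Without all 3 lymphocyte-rich mice the log2 fold changes were -0.89 for Ccl5, -0.59 for Ccr7, -0.76 for Ccl22 and -0.54 for Cxcr6, and none passed the threshold. DESeq2 called Ccl5 and Cxcr6 lower with all mice kept, and the part of the lymphocyte-rich mice in these calls was not tested.

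Ccl11 and Ccl7 went the other way. Ccl11 had 25.6, 49.5 and 78.3 CPM in WT and 53.8, 70.7 and 99.1 CPM in KI mice, so every KI mouse exceeded the WT median. Its log2 fold change was 0.46 ± 0.17, with an adjusted p of 0.0618 and an exact permutation p of 0.0121. Ccl7, a monocyte attractant that binds Ccr2 and lies beside Ccl11, had 6.80, 14.1 and 37.1 CPM in WT and 17.5, 25.1 and 42.8 CPM in KI mice, with a log2 fold change of 0.65 ± 0.30 (adjusted p = 0.14). Neither passed the threshold. Ccl2, the main monocyte attractant of the same cluster, had 5.88, 8.77 and 52.9 CPM in WT and 6.01, 8.30 and 17.2 CPM in KI mice. Its log2 fold change of -0.57 ± 0.44 rested on WT mouse 7, which had the 52.9 CPM, and was 0.11 without it. Their receptor Ccr2 had a log2 fold change of -0.29 ± 0.14 (adjusted p = 0.149). Ccl6 and Ccl9, abundant ligands of Ccr1, had -0.44 ± 0.24 and -0.64 ± 0.25, and Ccr1 had -0.49 ± 0.28. Ccl8, a ligand of Ccr8 and Ccr2, had a log2 fold change of -0.92 ± 0.60, and Ccl24, the eosinophil attractant eotaxin-2, 0.26 ± 0.17.

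Of the homeostatic ligands, which organise lymphoid and stromal tissue at rest, 3 of 5 tested had a log2 fold change above 0 and 2 below. Cxcl12 was the most even of all, with 167, 207 and 233 CPM in WT and 183, 200 and 234 CPM in KI mice and a log2 fold change of 0.00 (interval -0.16 to 0.17). Its receptor Cxcr4 had -0.12 ± 0.19. Cxcl13 had 0.02 ± 1.42 with all mice and -2.72 without KI mouse 2 (adjusted p = 0.142). Its receptor Cxcr5 had -0.37 ± 0.47, and 110 of its 3332 exonic bases overlap Bcl9l on the opposite strand. The neutrophil attractants Cxcl1 and Cxcl2 had 0.19 ± 0.34 and -0.76 ± 0.33, and their receptor Cxcr2 was too low to test. The membrane-bound ligands Cx3cl1 and Cxcl16 had 0.01 ± 0.15 and -0.16 ± 0.32, and Cx3cr1, the receptor of the first, had -0.50 ± 0.33. None of these had an adjusted p below 0.1.

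**Figure D3:**
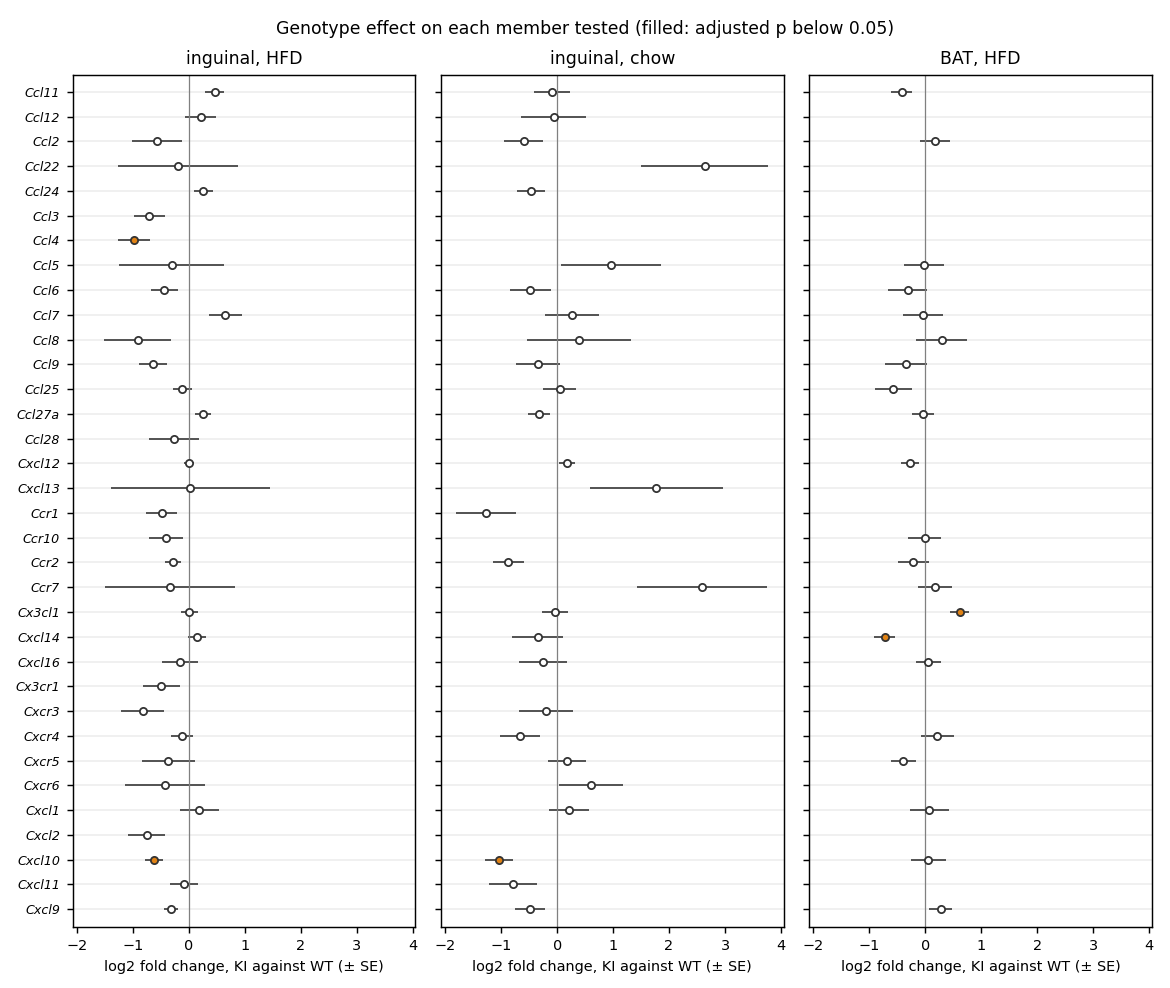
Log2 fold change of KI against WT mice (horizontal axis, with SE bars) for each chemokine and receptor tested (vertical axis), in 1 panel for each tissue and diet, with filled points where the adjusted p is below 0.05. In inguinal WAT on HFD 24 of 34 points lie left of 0, and the filled points are Ccl4 and Cxcl10 there, Cxcl10 on chow, and Cx3cl1 and Cxcl14 in BAT.

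In inguinal WAT on chow, none of 28 genes tested was called by edgeR, against 3.27% of 14629 genes, and DESeq2 called Cxcl10 alone, against 7.74%. At an unadjusted p below 0.05 there were 5 (2 higher and 3 lower in KI mice), where 24.5% of all genes had such a p. At an adjusted p below 0.05 there was Cxcl10 alone, against 8.63% of all genes. The median log2 fold change was -0.15 (17 of 28 below 0), against -0.00 over all genes, and it was -0.58 without KI mouse 3, 0.06 without WT mouse 4 and -0.35 without the 4 lymphocyte-rich mice. All 15 macrophage markers had a log2 fold change below 0 here, with none called, and their sum was 1067, 1400 and 4034 CPM in WT and 913, 1130 and 1989 CPM in KI mice. The 4 mast cell markers, which fell on HFD, had values above 0 here, from 0.84 to 1.62. Of these, Cpa3 was called (1.62 ± 0.30, edgeR adjusted p = 0.00434). No gene was free of overlap between the genotypes, against 4.36% of all genes.

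Cxcl10 was again the gene with the lowest adjusted p. It had 3.45, 6.40 and 8.54 CPM in the 7 WT mice and 1.88, 2.96 and 4.63 CPM in the 6 KI mice, and 4 KI mice lay below every WT mouse. The log2 fold change was -1.04 ± 0.26, with an adjusted p of 0.0215 (edgeR) and an exact permutation p of 0.00699. In one fit of all 6 groups it passed the threshold, and over all alternatives its adjusted p ran from 0.00203 to 0.0475. Art3 had a log2 fold change of -0.41 ± 0.21 in these mice. Cxcl10 was 1.5%, 2.10% and 6.56% of the Art3 level in WT and 0.854%, 1.53% and 3.32% in KI mice (exact permutation p = 0.272). Cxcl9 and Cxcl11 had -0.48 ± 0.26 and -0.78 ± 0.43.

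Ccr2 had 17.4, 25.0 and 48.9 CPM in WT and 11.9, 14.5 and 24.8 CPM in KI mice, with a log2 fold change of -0.87 ± 0.27 (adjusted p = 0.0647, exact permutation p = 0.0186). Ccr1 had -1.26 ± 0.54 (adjusted p = 0.158), and its highest value, 9.80 CPM, was that of WT mouse 4, which also had the highest macrophage sum. Ccl2 had -0.60 ± 0.35. The largest positive values, 2.64 ± 1.13 for Ccl22, 2.58 ± 1.16 for Ccr7 and 1.77 ± 1.19 for Cxcl13, rested on KI mouse 3. Without this mouse they were -0.85, -0.33 and 0.20. Ccl5 had 0.96 ± 0.89 with all mice, -1.34 without KI mouse 3 and -1.76 without all 4 lymphocyte-rich mice, where it passed the threshold (adjusted p = 0.00141). With all 4 left out, 5 WT and 4 KI mice remained.

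**Figure D4:**
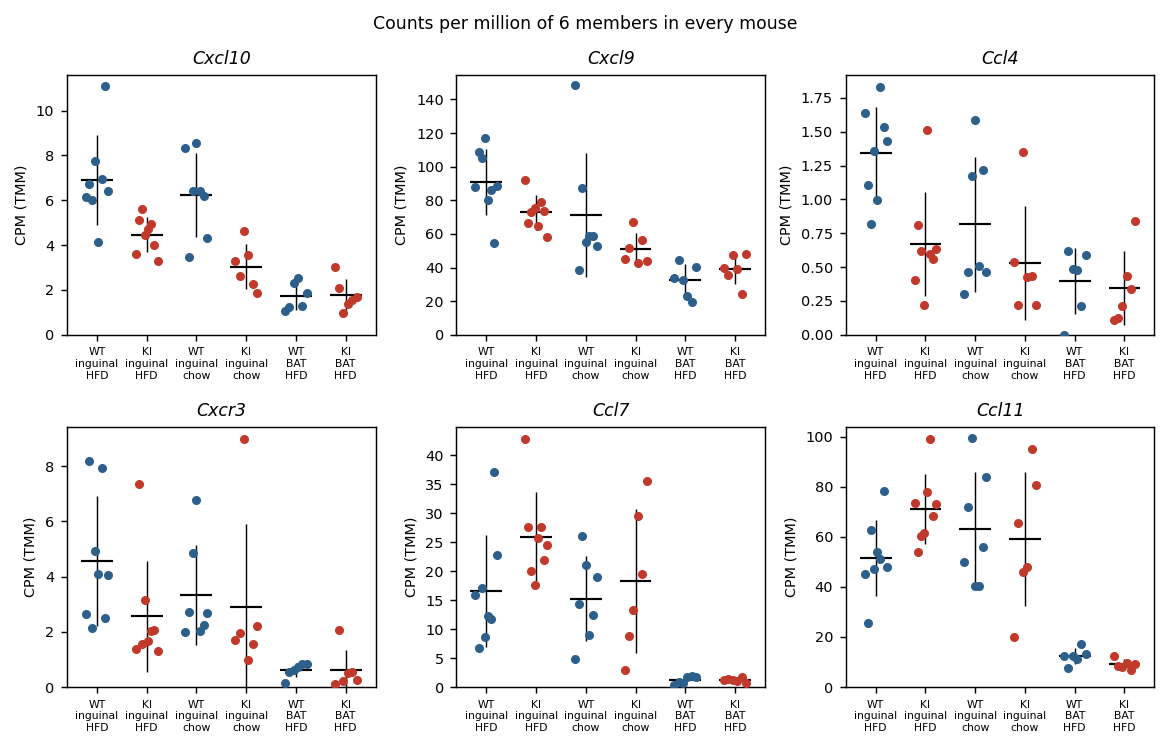
CPM (vertical axes) of Cxcl10, Cxcl9, Ccl4, Cxcr3, Ccl7 and Ccl11 in the 6 groups (horizontal axes), 1 point per mouse, blue for WT and red for KI, with the group mean and SD as black lines. The red Cxcl10 points lie mostly below the blue ones in both inguinal pairs, while in BAT the genotypes overlap throughout, and Ccl7 stays below 2 CPM in BAT.

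In BAT on HFD, none of 21 genes tested was called by edgeR, against 1.83% of 13267 genes, and DESeq2 called Cxcl14 alone, against 5.39%. There were 3 genes at an unadjusted p below 0.05 (1 higher and 2 lower in KI mice), where 24.4% of all genes had such a p. At an adjusted p below 0.05 there were 2, against 7.18% of all genes. The median log2 fold change was -0.03 (12 of 21 below 0), against -0.01 over all genes, and no gene was free of overlap, against 3.56%. The macrophage markers summed to 231, 393 and 687 CPM in WT and 247, 332 and 417 CPM in KI mice.

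Cxcl14 and Cx3cl1 had the lowest adjusted p in BAT, in opposite directions. Cxcl14 had 31.2, 41.7 and 53.7 CPM in WT and 18.3, 25.7 and 37.4 CPM in KI mice, with 5 of the 6 KI mice below every WT mouse. Its log2 fold change was -0.72 ± 0.19, with an adjusted p of 0.0297 (edgeR) and an exact permutation p of 0.00866. All 7 fibroblast markers also had a log2 fold change below 0 in BAT, with Dpt and Pi16 called, and their sum was 436 to 999.9 CPM in WT and 261 to 476 CPM in KI mice. Values below 0 for these markers were not limited to BAT. In inguinal WAT on HFD all 7 were below 0, with Lum (-1.39 ± 0.20) and Dpt (-0.75 ± 0.17) called. Their median sum there was 3977 CPM for WT against 2721 CPM for KI mice, while Cxcl14 had 0.15 ± 0.16. On chow Pdgfra alone was above 0 (0.09), Dpt was called (-1.28 ± 0.27), and Cxcl14 had -0.35 ± 0.45. The median sum on chow was 4489 CPM for WT against 2568 CPM for KI mice. The part of fibroblasts in the Cxcl14 value of BAT was not tested. Cx3cl1, a membrane-bound ligand of endothelium and neurons, had 8.75, 10.9 and 13.3 CPM in WT and 11.4, 16.8 and 24.2 CPM in KI mice, with 5 of the 6 KI mice above every WT mouse. Its log2 fold change was 0.62 ± 0.17, with an adjusted p of 0.0394 and an exact permutation p of 0.0130. The summed endothelial markers went from 1304 to 1547 CPM in WT and from 1139 to 1654 CPM in KI mice.

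Cxcl10, which had the lowest p in inguinal WAT, was low in BAT. It had 1.06, 1.57 and 2.52 CPM in WT and 0.969, 1.62 and 3.00 CPM in KI mice (log2 fold change 0.06 ± 0.31). Ccl11 had -0.43 ± 0.18 (adjusted p = 0.16), opposite in sign to inguinal WAT on HFD, and Ccl25, a thymic and gut ligand of Ccr9, had -0.57 ± 0.32. Cxcl9 and Ccl8 had 0.27 ± 0.20 and 0.29 ± 0.45.

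**Figure D5:**
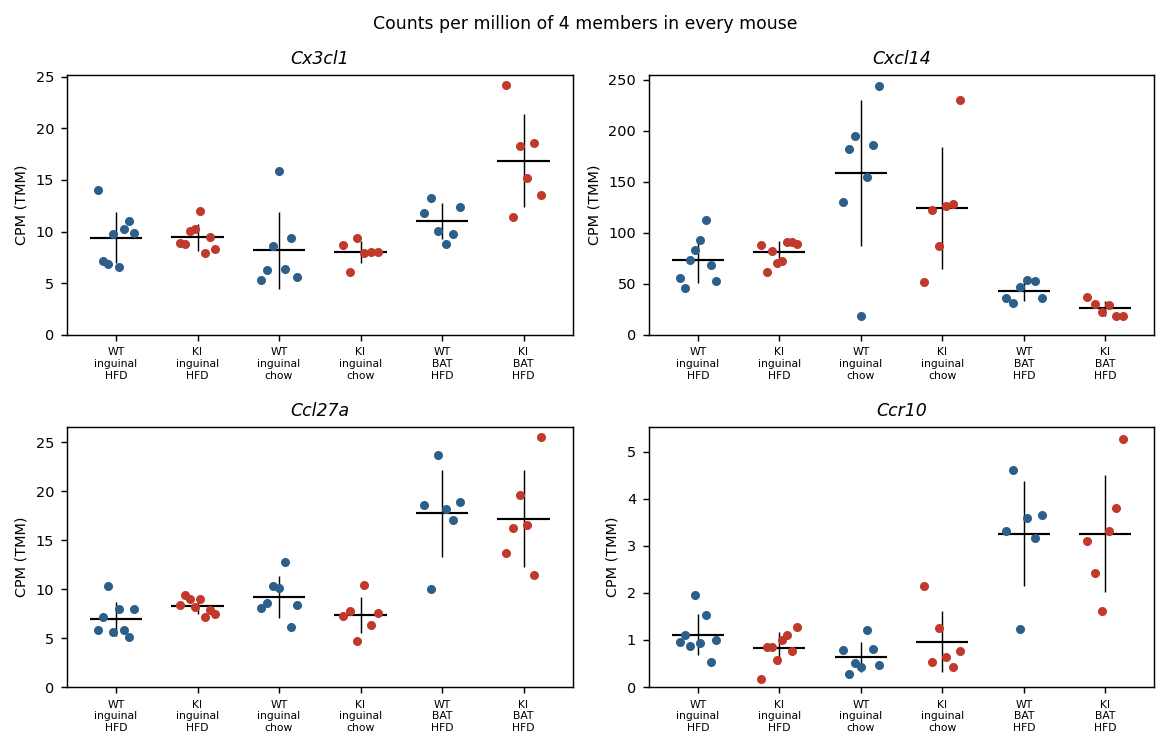
CPM (vertical axes) of Cx3cl1, Cxcl14, Ccl27a and Ccr10 in the 6 groups (horizontal axes), 1 point per mouse, blue for WT and red for KI, with the group mean and SD as black lines. In BAT 5 of 6 KI mice lie above every WT mouse for Cx3cl1 and below every WT mouse for Cxcl14, and most BAT points of Ccl27a and Ccr10 lie above the inguinal ones.

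Differences of the KI effect between tissues and diets were tested as interactions. Between BAT and inguinal WAT on HFD, none of 35 genes was called, against 2.82% of 17214 genes, and 5 had an unadjusted p below 0.05, against 22% of all. DESeq2 called 0 as well, against 5.43% of all genes. The 2 with an adjusted p below 0.05, a share of 7.44% over all genes, were Ccl11, with an effect in BAT lower by 0.86 ± 0.26 on the log2 scale (adjusted p = 0.0428), and Cxcl14, with an effect lower by 0.84 ± 0.26 (0.0408). For Cx3cl1 the difference was 0.65 ± 0.23 (0.0794) and for Cxcl10 0.71 ± 0.33 (0.194). Between the diets, none of 35 genes was called, against 0.845% of 17400 genes, and DESeq2 called 0 as well, against 2.8%. The 2 with an unadjusted p below 0.05, against 17.1% of all genes, were Ccl24, at 0.75 ± 0.31, and Ccl27a, at 0.60 ± 0.23. For Cxcl10 the effect on HFD differed from that on chow by 0.43 ± 0.29 (adjusted p = 0.492), with an interval of -0.14 to 1.01. Whether BAT and inguinal WAT came from the same mice is not given, and the test takes them as independent.

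The diets were compared within each genotype in the 4 inguinal groups, and diet cannot be told apart from the experiment or its depth. Among WT mice, Ccl24 and Cxcl14 were called, both lower on HFD, and none was called higher, so 2 of 35 genes were called where 28.3% of all genes were (16.6% lower). Ccl24 had 3.56, 6.28 and 9.04 CPM on HFD and 7.85, 10.03 and 12.5 CPM on chow, and it fell by 0.84 on the log2 scale (SE 0.21, adjusted p = 0.00209). Cxcl14 had 45.5, 70.7 and 112 CPM on HFD and 17.9, 182 and 244 CPM on chow, where the 17.9 CPM was that of WT mouse 4 and the other 6 mice all lay above the HFD range. It fell by 1.21 (SE 0.32, adjusted p = 0.00362). Among KI mice, where 30.7% of all genes were called (14.1% higher), Cxcr4 alone was called. It had 21.2, 28.4 and 44.8 CPM on HFD and 4.52, 11.6 and 24.1 CPM on chow, and rose by 1.18 (SE 0.29, adjusted p = 0.00188). Without all 7 lymphocyte-rich mice, Ccl3 and Ccl9 were also called in WT mice and Cxcl14 in KI mice.

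BAT had less of most chemokine transcripts than inguinal WAT of mice on the same diet, and tissue cannot be told apart from the experiment or its depth. In WT mice 22 of 35 genes were called, 18 lower and 4 higher in BAT, where 55.9% of all genes were called, 29% lower and 26.9% higher. In KI mice 14 were called, 11 lower and 3 higher, where 59.1% of all genes were called, 30.7% lower and 28.4% higher. The median log2 difference was -1.50 in WT and -1.22 in KI mice, against -0.09 and -0.12 over all genes. The low-count filter kept 35 genes in this joint fit but 21 in BAT alone. Some genes therefore entered only through inguinal WAT, where they are higher, which favours calls lower in BAT and a median below 0. With at least 10 counts in every mouse, 10 were called in WT and 9 in KI mice. The log2 difference was -3.16 in WT and -3.83 in KI mice for Ccl7, -3.02 and -2.44 for Ccr1, -2.69 and -2.36 for Ccl9, and -2.27 and -1.89 for Cxcr4, all called lower. Ccr1 had only 0 to 7 counts per mouse in BAT, most of them 3 or fewer, and Ccl7 had 3 to 18. The sizes of these 2 differences are therefore uncertain. Macrophage markers summed to 231 to 687 CPM in BAT and to 875 to 2579 CPM in inguinal WAT on HFD, and their part in these values was not tested.

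Ccl27a and its receptor Ccr10, a pair known for T cell homing to skin, were higher in BAT. Ccl27a had 10.01, 18.4 and 23.7 CPM in BAT of WT mice against 5.07, 6.46 and 10.4 CPM in inguinal WAT of WT mice on HFD, and rose by 1.90 ± 0.17 in WT and 1.64 ± 0.17 in KI mice. It has a near-identical copy, Ccl27b. In a gene model of 2377 exonic bases it overlaps Il11ra1 by 8 bases. The entry counted was 3562 bases long, and its overlap was not measured. Ccr10 had 1.22, 3.45 and 4.61 CPM against 0.525, 0.976 and 1.95 CPM in WT mice, and rose by 2.10 ± 0.32 in WT and 2.55 ± 0.32 in KI mice. Cx3cl1 was higher by 0.78 ± 0.16 in WT and 1.43 ± 0.16 in KI mice, and Cxcl12 by 0.56 ± 0.12 in WT mice. Scaling by total counts moved the median of all genes to -0.60 in WT and -0.74 in KI mice. With it Ccl27a and Ccr10 remained called in both genotypes, Cx3cl1 had 0.27 in WT (adjusted p = 0.178) and 0.80 in KI mice, and Cxcl12 had 0.05 in WT and -0.30 in KI mice, so the direction for Cxcl12 depends on the scaling.

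Other genes of the pathway were called by edgeR in each comparison, beside 11.5% of all genes on HFD and 3.27% on chow in inguinal WAT and 1.83% in BAT. DESeq2 called 16.5%, 7.74% and 5.39% of all genes in the same order. An unadjusted p below 0.05 was found for 32.9%, 24.5% and 24.4% of all genes. The counts below are to be read beside these shares. Of 16 decoy receptors and related ligands outside the naming rule, 13 were tested in inguinal WAT on HFD, and 2 fell there, Ackr1, a decoy receptor of venular endothelium (log2 fold change -0.63 ± 0.13, adjusted p = 0.00189), and Rarres2, which encodes chemerin (-0.34 ± 0.08, 0.00594). On chow 1 of 10 fell, Ackr3, the scavenging receptor of Cxcl12 (-0.82 ± 0.15, 0.00456). In BAT 1 of 8 fell, Cmklr1, the receptor of chemerin (-1.45 ± 0.28, 0.00589). DESeq2 called the same genes of this list, and Rarres2 in BAT as well (edgeR adjusted p = 0.0247, lower in KI mice). Of 19 genes of chemokine signalling and processing, Gnb1, a G protein beta subunit, rose (0.24 ± 0.06, 0.00761) and Rgs2, which dampens G protein signals, fell (-0.89 ± 0.20, 0.00381) on HFD in inguinal WAT, where 18 were tested. DESeq2 called 5 of these 18, Arrb1, Gnb1, Pik3cg, Prkcb and Rgs2. Arrb1, a beta-arrestin, fell on chow (-0.54 ± 0.11, 0.00595, 17 tested), and none of 16 tested was called in BAT, where 2 had an unadjusted p below 0.05 and DESeq2 called Gnb1. Of 18 inducers of chemokine genes, such as NF-kB, Stat and interferon regulatory factors, edgeR called none. In inguinal WAT 15 were tested under HFD and 14 under chow, and 13 in BAT, of which 3, 0 and 3 had an unadjusted p below 0.05. DESeq2 called 0, 0 and 2 of them, the last being Irf1 and Tnfrsf1a.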

How the data were processed

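RNA of 41 mouse and tissue pairs was sequenced as 57 polyA-selected libraries (inguinal WAT on HFD had 2 per mouse, taken as summed in 1 column). The authors used cutadapt, STAR (genome GRCm38) and featureCounts, and deposited raw counts per gene with gene lengths. Versions and the strand setting are not given in the sources used here. Rows without length or count (1884) were left out, and of entries sharing a symbol the first was kept.

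Each table was fitted alone with edgeR 4.0.16 (R 4.3.3; TMM, filterByExpr, robust quasi-likelihood), with genotype as the only term. Genes are called at a Benjamini-Hochberg adjusted p below 0.01 over all genes tested. Interactions and differences between diets or tissues came from fits of 4 groups. SE is the size of the log2 fold change divided by the root of its F statistic, and intervals are 1.96 SE either side. Exact permutation tests are 2-sided, over mean log2(CPM + 0.5), with 83 run on members and 12 on ratios to overlapping genes. P-values measure the spread between these mice. Alternatives were no filter, at least 10 counts in every mouse, RLE size factors, DESeq2 1.42.0, a replicate block, a joint fit of the 6 groups, leaving out each mouse, an adjusted p below 0.05 and, chosen after seeing the data, leaving out mice whose lymphocyte marker sum exceeded 3 times the table's median and scaling by total counts. The steps were tested on simulated data.

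The members, lists and markers were chosen with earlier results of these data known. A member that the rule matches is not reported here. Named are members called anywhere, the 3 largest rises and falls in each genotype comparison, the 5 highest per length in each group, those that change without KI mouse 2 of inguinal WAT on HFD, and ligands and receptors paired with each other. Mouse numbers are not stated to pair the samples, and pairing was left out of the main fits. Same-numbered mice correlated from -0.28 to 0.65, which does not decide whether they were paired.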

Additional observations from a re-analysis of the deposited data

Results flagged for a closer look

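In 148 groups of a member's values in the mice of one genotype, tissue and diet, 39 values stood farther from the nearest other mouse than Dixon's 95% critical value allows. That value is set for about 1 in 20 groups by chance when values follow a normal distribution. Here CPM were used without logs and the groups share mice, so the 39 cannot be set against that rate. Most of the 39 flagged values belong to few mice.

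Inguinal WAT of HFD-fed KI mouse 2, which has the highest lymphocyte marker sum, had 10 of the flagged values, each the highest of its group. These were Ccl5 (154 CPM), Cxcl13 (62.8), Ccr7 (58.7), Ccl22 (53.5), Cxcr4 (44.8), Cxcl16 (38.8), Cxcr5 (32.03), Cxcr6 (9.90), Cxcr3 (7.35) and Ccl12 (4.26 CPM). HFD-fed WT mouse 2 was flagged as highest for Cxcr4 (55.9 CPM), Cxcl13 (52.7), Cxcr5 (31.7) and Cxcr6 (9.21). It was also the highest of its group, without a flag, for Ccl5 (92.7 CPM), Ccr7 (49.6) and Ccl22 (38.7), among others. Chow-fed KI mouse 3 was flagged as highest for Ccl5 (127 CPM), Cxcl13 (80.2), Ccr7 (54.1), Ccl22 (49.4), Cxcl16 (37.3), Cxcr5 (20.5), Cxcr3 (8.98) and Cxcr6 (8.69). All 3 mice carry lymphocyte markers, and the part of lymph node tissue in these values was not tested.

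Chow-fed WT mouse 4, which has the highest macrophage marker sum of its table, was flagged as highest for Ccl9 (153 CPM), Ccl8 (68.7), Cxcl16 (38.3), Cxcr4 (36.3), Cxcl13 (23.6), Cx3cl1 (15.9), Ccr1 (9.80), Ccr7 (6.03) and Cxcr6 (3.60). HFD-fed KI mouse 5 was flagged as highest for Ccl4 (1.51 CPM) and Cxcl2 (1.39).

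Single values stood apart in 6 further mice. These were Ccl7 at 42.8 CPM in HFD-fed KI mouse 1, Cx3cr1 at 0.177 CPM, the lowest, in HFD-fed KI mouse 4, and Ccl2 at 52.9 CPM in HFD-fed WT mouse 7. On chow, Ccl25 in WT mouse 7 was lowest at 0.700 CPM. In BAT, Ccl2 in KI mouse 2 was lowest at 1.58 CPM and Cxcl12 in WT mouse 4 highest at 263 CPM.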

How the results depend on the processing

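The number of members called, 0 in each genotype comparison, stayed at 0 under most alternatives. In inguinal WAT on HFD it was 2 at an adjusted p below 0.05, 4 with DESeq2 and 0 to 1 when 1 mouse was left out, with Cxcr3 called without KI mouse 2, Ccl4 without KI mouse 5, Cxcl10 without WT mouse 5 and Cxcl9 without WT mouse 7. On chow it was 1 at an adjusted p below 0.05, 1 with DESeq2 and 1 in one fit of all 6 groups (Cxcl10 each time), and 1 without the lymphocyte-rich mice (Ccl5). In BAT it was 2 at an adjusted p below 0.05 and 1 with DESeq2. The fit with a replicate block called 0 members in all 3 tables, and 1545, 119 and 363 of all genes in the HFD, chow and BAT tables, where the fit without the block called 1886, 479 and 243.

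The diet difference called 2 members in WT mice, but 1 without a low-count filter and 4 without the lymphocyte-rich mice, and 1 in KI mice, but 3 at an adjusted p below 0.05 and 2 without the lymphocyte-rich mice. The tissue difference in KI mice called 14, but 24 at an adjusted p below 0.05, 9 with at least 10 counts in every mouse and 26 when scaled by total counts, and that in WT mice called 22, but 10 with at least 10 counts in every mouse. The tissue interaction called 2 at an adjusted p below 0.05.

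A change of sign is counted where either value exceeds the SE. On HFD, leaving out 1 mouse gave -2.72 (without KI mouse 2) to 1.76 for Cxcl13 and -0.73 to 0.11 (without WT mouse 7) for Ccl2. On chow, leaving out 1 mouse gave -1.34 to 1.21 for Ccl5, -0.85 to 2.89 for Ccl22, -0.33 to 3.44 for Ccr7 and -0.33 to 0.91 for Cxcr6, each lowest value without KI mouse 3. Leaving out the lymphocyte-rich mice gave -1.76 for Ccl5, -0.77 for Ccl22, -0.0095 for Ccr7, -0.53 for Cxcr6 and -0.36 for Cxcr5, and Ccl5 was -0.66 with the replicate block. The cause of these moves was not tested. At the depth of BAT, 18 of the 54 genes had at most 3 counts in every BAT mouse, and differences in these were not detectable. The number of all genes called on HFD ran from 1242 to 3448, on chow from 119 to 1263 and in BAT from 134 to 952.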

Other observations

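The Cxcl10 level in BAT, as a share of that of its overlapping neighbour Art3, was 1.34%, 1.77% and 4.09% in WT (lowest, median, highest) and 1.70%, 2.23% and 3.66% in KI mice (exact permutation p = 0.636). Bcl9l, which overlaps Cxcr5, fell in BAT of KI mice (log2 fold change -0.74 ± 0.10, edgeR adjusted p = 0.000394), where Cxcr5 had -0.39 ± 0.23. Cxcr5 was 3.31% to 7.83% of the Bcl9l level in WT and 5.48% to 8.01% in KI mice.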
